A study of Homo sapiens with 6 samples.

Results

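Of 11280 genes that averaged 100 or more in the control libraries, 167 met limits set for being lower in C4-2B-ENZR prostate cancer cells labelled KIF15 knockdown. Each of the 167 had a mean in the 3 knockdown-labelled libraries (siKIF15) of at most 0.65 times the mean of the 3 negative control siRNA libraries (NC), with every siKIF15 value below every NC value. The files list 17331 gene symbols outside lines turned into calendar dates. Only 1 of the 11280 genes was matched to chromosome 20, so the counts given here hardly cover that chromosome. Before 11 symbols were set aside by name, 175 genes (1.55% of the 11280) met these limits, and 8 of the 11 were among them. The limits turned round, for higher genes, were met by 250 genes (2.22%). Non-overlap of the groups alone is less selective, since 2313 of the abundant genes (20.5%) lay lower in siKIF15 without overlap. The ratios chose the members, so they are given as a description without a test.

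Both groups are cultures of C4-2B-ENZR, a human prostate cancer line resistant to the androgen receptor inhibitor enzalutamide. The siKIF15 cells received an siRNA against KIF15 and the NC cells a negative control siRNA, so both groups were transfected; time after transfection is not given, nor whether libraries of a group come from separate cultures. RNA was measured by RNA-seq in bulk, where fewer cells of a type and less RNA per cell cannot be told apart. Values are the deposited signal per gene, with unknown depth, and are compared between libraries for a gene, never between genes. KIF15, a spindle motor and the siRNA's target, averaged 330.3 ± 34.2 in siKIF15 and 363 ± 42.4 in NC (SD, n = 3 each), a ratio of 0.91. The groups overlap for KIF15, so siKIF15 names a label here and not a shown knockdown. All 10 luminal prostate markers averaged at least 100 in both groups, and they summed to 323654 to 344377 in siKIF15 libraries and 299814 to 309191 in NC libraries, without overlap. The 6 basal epithelial markers summed to 3194 to 3677 in siKIF15 libraries and 2259 to 2519 in NC libraries, also without overlap. COL17A1, a basal collagen among them, had 221, 247 and 221 in siKIF15 libraries, against 13.8, 6.97 and 14.3 in NC libraries. The basal keratins KRT5 and KRT15 lay at the floor of the values in every NC library and were very low in siKIF15 libraries too. KRT5 had 2.66, 5.17 and 1.06 there, and KRT15 had 1.81, 2.08 and 0.01. Most of the basal sum came from ITGB4, with 3398, 2886 and 2937 in siKIF15 libraries, against 2350, 2231 and 2495 in NC libraries. Summed ranges overlapped for neuroendocrine markers (2307 to 2677 in siKIF15, 2176 to 2490.2 in NC), fibroblast markers (452 to 501 in siKIF15, 488 to 529.8 in NC), endothelial markers (318 to 414 in siKIF15, 315 to 334 in NC) and leukocyte markers (27.5 to 57.1 in siKIF15, 23.4 to 54.3 in NC). The part of the marker differences in the members' lower values was not tested.

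The members are no single pathway. Grouped by textbook role they include enzymes and receptors of iron, glutathione and lipid metabolism, parts of the microRNA machinery, DNA damage kinases, nutrient sensors and autophagy factors, ubiquitin ligase adaptors, cytoskeletal and ciliary proteins, and cell surface receptors. MicroRNAs are cut from hairpins by Dicer and loaded into an Argonaute protein, which recruits TNRC6 scaffolds to silence messenger RNAs. Iron enters cells through the transferrin receptor and is stored in ferritin, and glutathione, made by glutamate-cysteine ligase, buffers oxidants. Sestrins, mTOR complexes and the autophagy initiation complex adjust growth to nutrients. Immediate early genes are short-lived transcripts switched on by growth factor or calcium signals.

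The siKIF15 libraries were not alike for these genes. The median member stood at 0.597 of its NC mean in siKIF15 1, 0.508 in siKIF15 2 and 0.718 in siKIF15 3. siKIF15 2 held the lowest of the 3 values for 130 members (77.8%), against 35.8% of all abundant genes, and siKIF15 3 held the highest for 140 (83.8%), against 41.4%. The coefficient of variation had a median of 18.5% in siKIF15 and 5.71% in NC over the members, beside 8.49% in siKIF15 and 4.68% in NC over the other abundant genes. The same limits found 98 genes without siKIF15 2, of which 78 were members, and 385 without siKIF15 3, of which 163 were members. The order of the libraries moved with transcript length and GC content, as described after the gene groups, and the part of these in each member's difference was not tested. Of the 162 members matched to an annotated transcript, 56 still met the limits once each library's trend with GC content and transcript length was removed, and the groups are described with that count beside them.

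**Figure D1:**
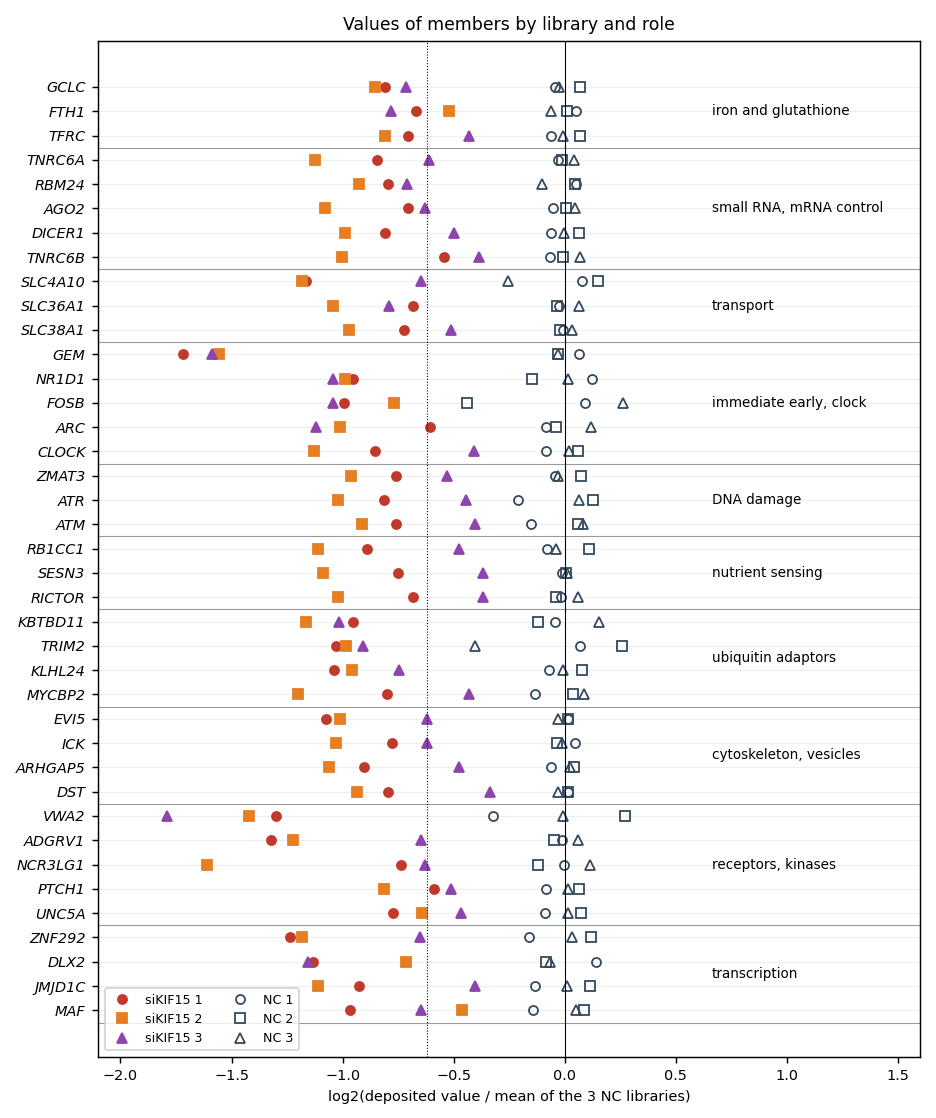
Deposited value of chosen members in each library, as log2 of the value over the mean of the 3 NC libraries, by role. Filled symbols are siKIF15 libraries and open symbols NC libraries, the solid line is the NC mean and the dotted line the ratio limit of 0.65; siKIF15 2 lies farthest left and siKIF15 3 nearest to NC in most roles, whereas in the immediate early group GEM and NR1D1 have the 3 siKIF15 libraries close together.

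Promoters of 4 members are shown because they hold the motif TATAAA, the core of the TATA box that positions transcription, which was found in a larger share of the members' promoters than in those of other abundant genes. A RefSeq promoter, 250 bases before to 50 after the gene's start (GRCh38.p14), was matched for 134 members, and 17 of them (12.7%) held TATAAA on either strand, against 4.78% of 8893 other abundant genes and 12.0% of all 27305 promoters in the table. The genes are GCLC (chr6:53545052-53545351, minus strand), TFRC (chr3:196082041-196082340, minus strand), FOSB (chr19:45467746-45468045, plus strand) and SLC38A1 (chr12:46266467-46266766, minus strand). Each is printed 5′ to 3′ along the gene, with the motif in capitals.
GCLC: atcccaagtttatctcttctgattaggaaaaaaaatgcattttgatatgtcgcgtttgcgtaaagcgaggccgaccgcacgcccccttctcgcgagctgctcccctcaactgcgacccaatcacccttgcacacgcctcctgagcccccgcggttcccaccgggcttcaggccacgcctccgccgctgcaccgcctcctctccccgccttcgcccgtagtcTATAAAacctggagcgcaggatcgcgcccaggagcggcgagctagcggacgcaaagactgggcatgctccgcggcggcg
TFRC: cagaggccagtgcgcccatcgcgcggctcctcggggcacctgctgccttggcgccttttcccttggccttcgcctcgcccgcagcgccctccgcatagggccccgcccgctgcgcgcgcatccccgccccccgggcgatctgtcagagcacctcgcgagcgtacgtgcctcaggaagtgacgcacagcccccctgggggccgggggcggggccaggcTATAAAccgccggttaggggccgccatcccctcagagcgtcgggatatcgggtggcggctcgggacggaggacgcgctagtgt
FOSB: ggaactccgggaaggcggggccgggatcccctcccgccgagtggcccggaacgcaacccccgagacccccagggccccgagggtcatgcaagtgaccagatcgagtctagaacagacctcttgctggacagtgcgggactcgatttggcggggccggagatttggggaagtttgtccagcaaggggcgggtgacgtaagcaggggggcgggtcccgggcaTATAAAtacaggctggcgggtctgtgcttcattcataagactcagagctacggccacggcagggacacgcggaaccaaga
SLC38A1: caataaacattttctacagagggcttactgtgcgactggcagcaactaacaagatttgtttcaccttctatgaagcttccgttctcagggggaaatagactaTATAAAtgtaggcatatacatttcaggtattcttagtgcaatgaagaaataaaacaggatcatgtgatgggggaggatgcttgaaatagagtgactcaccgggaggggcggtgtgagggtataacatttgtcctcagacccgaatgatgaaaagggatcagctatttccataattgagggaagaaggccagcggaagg
The motif lies on the gene's strand, and its first base is 29 bases before the start in GCLC, 33 in TFRC, 30 in FOSB and 148 in SLC38A1. In SLC38A1 it is thus much farther upstream than in the other promoters. A match describes the letters and does not show that a site is used, and the shares were not tested.

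The metabolic group, named for iron, glutathione and lipids, held 22 members, and 17 of the 22 met the limits after correction for GC content and length. It also took in other enzymes, such as CYP1A2, MAT1A and DIO3, so these counts are not for iron, glutathione and lipid genes alone. Of the iron, glutathione and lipid members named below, TFRC, NPC1, PLD1 and LPL did not meet the limits after correction, and the others did. GCLC, the catalytic subunit of the enzyme that limits glutathione synthesis, had 10791, 10476 and 11528 in siKIF15 libraries, against 18327, 19849.6 and 18591 in NC libraries. The siKIF15 mean was 0.578 of the NC mean, and this ratio stands in brackets after the values of the genes that follow. The 3 siKIF15 values lie close together and every one is far below the NC range. FTH1, the ferritin heavy chain that stores iron, had 98581, 109332 and 91266 in siKIF15 libraries, against 162389, 157948 and 150018 in NC libraries (0.636). Here siKIF15 3 is the lowest library, unlike in most members, and FTH1 has many near-identical pseudogene copies, with which its reads may be shared. TFRC, the transferrin receptor through which iron enters, had 11194, 10412 and 13543 in siKIF15 libraries, against 17499.8, 19113 and 18164 in NC libraries (0.642). The RNA of TFRC and that of FTH1 were thus both lower, and after correction TFRC stood at 0.711, outside the limit, and FTH1 at 0.578. FTL, the ferritin light chain, had 24150, 25532 and 20913 in siKIF15 libraries, against 26247, 23502 and 24388 in NC libraries (0.952). The groups overlap for FTL, so the lower ferritin RNA is that of FTH1 alone. SLC7A11, the cystine importer for glutathione synthesis and set aside by name, had a ratio of 0.728 and lay outside the limits.

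Enzymes of lipids and lipid messengers made up much of the remaining metabolic members. DGKH, a diacylglycerol kinase, had 413, 297 and 523 in siKIF15 libraries, against 667, 819.6 and 843 in NC libraries (0.529). CERK, which phosphorylates ceramide, had 1257, 1099 and 998.8 in siKIF15 libraries, against 1807, 1928 and 1970.0 in NC libraries (0.588). LPL, lipoprotein lipase, had 558, 546 and 597 in siKIF15 libraries, against 874, 908 and 874 in NC libraries (0.641). LPL varies little within either group, and CERK is another gene lowest in siKIF15 3. NPC1, which exports cholesterol from lysosomes, stood at a ratio of 0.633, the phospholipases PLD1 and PLA2G4C at 0.621 and 0.593, and PNPLA3, a lipid droplet protein, at 0.640. PGAP1, which remodels glycosylphosphatidylinositol anchors, had 123, 109 and 158 in siKIF15 libraries, against 274, 295 and 243 in NC libraries (0.480). PGM2L1, a relative of phosphoglucomutase, had 54.3, 62.6 and 68.0 in siKIF15 libraries, against 175, 119 and 94.3 in NC libraries (0.477), with the NC values themselves spread widely. PGM2L1 and PGAP1 had the lowest ratios of the metabolic group. CYP1A2, a xenobiotic-metabolising cytochrome P450, stood at 0.570, MAT1A, which makes the methyl donor S-adenosylmethionine, at 0.579, DIO3, which inactivates thyroid hormone, at 0.551, and HSD17B14, a steroid dehydrogenase, at 0.607.

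Among 8 members for membrane transport, 3 met the limits after correction. SLC38A1, a glutamine transporter whose promoter is printed above, had 3729, 3142 and 4329 in siKIF15 libraries, against 6132, 6075 and 6298 in NC libraries (0.605). SLC36A1, a proton-coupled amino acid transporter of lysosomes, had 2852, 2226 and 2650.3 in siKIF15 libraries, against 4498, 4464 and 4783 in NC libraries (0.562). SLC4A10, a sodium bicarbonate transporter, had 96.3, 95.2 and 138 in siKIF15 libraries, against 227, 239.8 and 181 in NC libraries (0.509). In SLC36A1 and SLC38A1 the 3 NC libraries differ little from each other, and the gap to the highest siKIF15 library is wide. The thiamine transporter SLC19A2 (0.646), the phosphate transporter SLC20A1 (0.647) and the chloride-proton exchanger CLCN5 (0.636) lay near the limit of 0.65. In all, 6 members (3.59%) had symbols beginning with SLC, against 1.84% of all abundant genes.

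The immediate early and clock genes were short transcripts for this set, with a median of 2948 bases, and 4 of 5 met the limits after correction. GEM, a small GTP-binding protein induced by calcium and growth factors, had 103, 115 and 112 in siKIF15 libraries, against 353, 331 and 331 in NC libraries. Its ratio of 0.325 was the lowest of all members and the libraries within each group were close, with the groups far apart. ARC, an activity-induced gene known from neurons, had 273, 206 and 191 in siKIF15 libraries, against 391.6, 404 and 450.3 in NC libraries (0.538). FOSB, an AP-1 transcription factor, had 71.5, 83.4 and 69.2 in siKIF15 libraries, against 151, 105 and 171 in NC libraries (0.525). FOSB and ARC are lowest in siKIF15 3, and NC 2 is low for FOSB, nearer to siKIF15 2 than to NC 3. NR1D1, the clock repressor REV-ERB alpha, had 659, 641 and 619 in siKIF15 libraries, against 1387, 1150.0 and 1288 in NC libraries (0.502). CLOCK, a positive arm of the same oscillator, had 965, 797 and 1314 in siKIF15 libraries, against 1649, 1818 and 1771 in NC libraries (0.587). The pair differs in its spread: NR1D1 varies little among siKIF15 libraries, whereas CLOCK, with 37.2% GC and a long transcript, follows the order of siKIF15 2 lowest and siKIF15 3 highest and stood at 0.724 after correction. EGR1, an immediate early gene set aside by name, had a ratio of 0.5003.

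The small RNA and messenger RNA control group held 11 members, and in all 11 siKIF15 2 was lowest and siKIF15 3 highest. DICER1, the nuclease that cuts microRNA precursors, had 2781, 2451 and 3443 in siKIF15 libraries, against 4659.9, 5082 and 4859 in NC libraries (0.594). AGO2, the Argonaute protein that carries the guide RNA and cleaves targets, had 3664, 2825 and 3860.3 in siKIF15 libraries, against 5759.9, 5994 and 6155 in NC libraries (0.578). TNRC6A, a scaffold that joins Argonaute to deadenylases, had 2405, 1982 and 2832 in siKIF15 libraries, against 4232, 4287 and 4454 in NC libraries (0.556). Each of these genes has NC values in a narrow band, and they were chosen for being lower, so their number says nothing about the pathway. Its paralogue TNRC6B had 2328, 1693 and 2601 in siKIF15 libraries, against 3247, 3380.3 and 3562 in NC libraries, and at 0.6499 was the member nearest to the ratio limit. After correction TNRC6A stood at 0.631, AGO2 at 0.699, DICER1 at 0.728 and TNRC6B at 0.821, so TNRC6A alone of the 4 kept within it. RBM24, an RNA-binding splicing regulator, had 1530.3, 1402 and 1628 in siKIF15 libraries, against 2755, 2746 and 2480.4 in NC libraries (0.571), and also met the limits after correction (0.582). Other members of the group act on messenger RNA fate: CPEB4, which controls poly(A) tails, stood at 0.620, RC3H2, a Roquin family decay factor, at 0.636, the splicing regulators MBNL2 and MBNL3 at 0.645 and 0.644, and SMG1, the kinase of nonsense-mediated decay, at 0.603. SMG1 has near-identical partial copies and its value is uncertain for that reason.

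Of 6 members with roles in the DNA damage response, none met the limits after correction. ATR, the kinase that senses stalled replication, had 787, 682 and 1017 in siKIF15 libraries, against 1195, 1512 and 1445 in NC libraries (0.599). ATM, the kinase that senses double-strand breaks, had 389, 350.1 and 498 in siKIF15 libraries, against 594, 686 and 697 in NC libraries (0.626). ZMAT3, an RNA-binding target of p53, had 1786, 1550.1 and 2096 in siKIF15 libraries, against 2936, 3177 and 2963 in NC libraries (0.599). siKIF15 3 is nearest to NC in each, and NC 1 is the lowest NC library for ATR and ATM. After correction ATR stood at 0.708, ATM at 0.792 and ZMAT3 at 0.725. REV3L, the catalytic subunit of a translesion polymerase, had a ratio of 0.602, the deacetylase SIRT1 0.606, and HIPK2, a kinase that phosphorylates p53, 0.637; HIPK2 had 5261, 3797 and 6155 in siKIF15 libraries, against 7487, 8209.6 and 8199 in NC libraries.

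The 10 members of nutrient sensing, autophagy and phosphoinositide metabolism had long, AT-rich transcripts, with a median of 38.5% GC, and none met the limits after correction. SESN3, a sestrin that restrains mTOR complex 1, had 4233, 3353 and 5516 in siKIF15 libraries, against 7059, 7150.0 and 7178 in NC libraries (0.613). RICTOR, the defining subunit of mTOR complex 2, had 491, 388 and 609 in siKIF15 libraries, against 778, 766 and 819.7 in NC libraries (0.630). RB1CC1, a scaffold of the autophagy initiation complex, had 1629, 1398 and 2173 in siKIF15 libraries, against 2859.6, 3262 and 2942 in NC libraries (0.574). All 10 genes were lowest in siKIF15 2 and highest in siKIF15 3. SESN3 had 3 NC values nearly equal to each other, so its spread is almost wholly within siKIF15. CREBRF, a regulator of CREB3, had 468, 468 and 677 in siKIF15 libraries, against 1028, 919 and 1034 in NC libraries (0.541), the lowest ratio of the group. FNIP1, a folliculin partner at the lysosome, stood at 0.618, the lipid kinases PIK3C2A and PIKFYVE at 0.606 and 0.638, the myotubularin family protein MTMR9 at 0.642, the lipid transfer protein VPS13C at 0.606 and the autophagy adaptor WDFY3 at 0.623. After correction SESN3 stood at 0.748, RICTOR at 0.743, RB1CC1 at 0.670 and CREBRF, the nearest to the limit, at 0.653.

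Ubiquitin ligases and their adaptors made up 11 members, of which 4 met the limits after correction. KBTBD11, a BTB-kelch protein, had 437, 377 and 418 in siKIF15 libraries, against 819.6, 778 and 939 in NC libraries (0.486). KLHL24, a BTB-kelch adaptor of cullin 3 ligases, had 804, 852 and 986 in siKIF15 libraries, against 1574, 1746 and 1642 in NC libraries (0.533). TRIM2, a ligase known from axons, had 76.0, 78.3 and 82.5 in siKIF15 libraries, against 163, 185 and 117 in NC libraries (0.509). The siKIF15 values of KBTBD11 and TRIM2 are close together, whereas NC 3 is low for TRIM2. KLHL28 (0.575) and KLHL15 (0.580) belong to the same BTB-kelch family, and the 3 KLHL symbols are 1.80% of the members, against 0.222% of all abundant genes. KLHL was not among the planned symbol families SLC, ZNF and TMEM, and TMEM symbols were 1.20% of the members, against 1.45% of all abundant genes. Of the 3 KLHL genes, KLHL15 did not meet the limits after correction (0.675). MYCBP2, a giant ligase, had 1155, 876 and 1493 in siKIF15 libraries, against 1835, 2067 and 2139.7 in NC libraries (0.583). It follows the usual order, with siKIF15 2 lowest and siKIF15 3 nearest to NC. MIB1, which ubiquitinates Notch ligands, stood at 0.628, the deubiquitinase USP34 at 0.623, LTN1, the ligase of ribosome quality control, at 0.639, and TRIM23 at 0.607.

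Receptors, ligands and kinases were the largest role group, with 29 members, of which 10 met the limits after correction. The group also took in proteins of other kinds, such as the matrix protein VWA2 and the docking protein GAB1. VWA2, an extracellular matrix protein, had 72.8, 66.8 and 51.7 in siKIF15 libraries, against 143, 216 and 178 in NC libraries (0.356). ADGRV1, a giant adhesion receptor, had 181, 193 and 288 in siKIF15 libraries, against 447, 438 and 471 in NC libraries (0.489). NCR3LG1, the ligand B7-H6 of a natural killer cell receptor, had 1290.3, 704 and 1391 in siKIF15 libraries, against 2144, 1978 and 2326 in NC libraries (0.525). VWA2 is lowest in siKIF15 3 and varies in NC, ADGRV1 is highest in siKIF15 3, and NCR3LG1 is lowest in siKIF15 2 by a wide margin. All of them met the limits after correction, at 0.329 for VWA2, 0.634 for ADGRV1 and 0.568 for NCR3LG1. PTCH1, the Hedgehog receptor, had 1881, 1608 and 1979.6 in siKIF15 libraries, against 2669, 2958 and 2856 in NC libraries (0.645). The cytokine receptor LIFR stood at 0.641, the ligand KITLG at 0.597, IL17RD, an inhibitor of fibroblast growth factor signalling, at 0.614, and the netrin receptor UNC5A at 0.6496. GAB1, a docking protein for receptor tyrosine kinases, had 162, 166 and 174 in siKIF15 libraries, against 304, 263 and 216 in NC libraries (0.642), with NC 3 well below the other NC libraries. GAB1 was thus level over the siKIF15 libraries and uneven over the NC libraries. Among kinases, UHMK1 had 8763, 7119 and 11473 in siKIF15 libraries, against 13970.3, 14624 and 15012 in NC libraries (0.627). The kinases HIPK3 (0.573), TAOK1 (0.612), PRKCA (0.621), CAMK1D (0.550) and STK17B (0.617) were members too, and TNIK, a kinase of Wnt signalling at 0.535, had a lone low value of 28.6 in siKIF15 2.

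The 22 members for the cytoskeleton, cilia and vesicles spanned microtubules, actin and membrane traffic, and 4 met the limits after correction. ARHGAP5, a GTPase-activating protein, had 3859, 3455 and 5179 in siKIF15 libraries, against 6897, 7416 and 7324 in NC libraries (0.577). MAP1B, a microtubule-associated protein, had 3809.5, 3075 and 4529 in siKIF15 libraries, against 5871, 5944 and 6341 in NC libraries (0.629). ICK, a kinase of cilia, had 3629, 3047 and 4039 in siKIF15 libraries, against 6421, 6074 and 6159.8 in NC libraries (0.574). In each of these siKIF15 2 is lowest and siKIF15 3 highest, and over all 22 members siKIF15 2 was lowest in 18 and siKIF15 3 highest in 21. EVI5, a regulator of Rab GTPases, had 288, 301 and 394 in siKIF15 libraries, against 612, 613 and 594 in NC libraries (0.540), and met the limits after correction at 0.645. KIF3A, the motor of ciliary transport and the only kinesin gene among the members, had 769, 764 and 1179 in siKIF15 libraries, against 1339.6, 1481 and 1377 in NC libraries (0.646). The microtubule-severing enzyme KATNAL1 stood at 0.612, the dynein adaptor HOOK1 at 0.603, the cross-linker DST at 0.630, the dystrophin relative UTRN at 0.627 and the formin FMNL2 at 0.632.

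Of 17 members for transcription and chromatin, 4 met the limits after correction, namely ZNF292, DLX2, MAF and CSRNP3. DLX2, a homeobox factor, had 119, 158 and 117 in siKIF15 libraries, against 287, 245 and 248 in NC libraries (0.505). ZNF292, a zinc finger protein, had 163, 169 and 245 in siKIF15 libraries, against 344, 417 and 393 in NC libraries (0.5005). MAF, a leucine zipper factor, had 126, 178 and 157 in siKIF15 libraries, against 222, 261 and 254 in NC libraries (0.625). DLX2 and MAF have 59.9% and 61.3% GC and do not follow the usual order, since siKIF15 2 is their highest library. JMJD1C, a jumonji domain protein, had 633, 556 and 907 in siKIF15 libraries, against 1096, 1301 and 1209 in NC libraries (0.581), and stood at 0.689 after correction. NFAT5, the factor of osmotic stress, stood at 0.599 and REL, a subunit of NF-kappa B, at 0.630. REL was at 50.8 in siKIF15 2, beside 154 in siKIF15 1 and 164 in siKIF15 3, so a lone low library sets its ratio. Only 4 members (2.40%) had ZNF symbols, against 3.59% of all abundant genes.

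Further abundant members have no firm role in these groups. LRRC58, a leucine-rich repeat protein, had 9512, 8368 and 12319 in siKIF15 libraries, against 15408, 16414 and 15704 in NC libraries (0.635). CMTM4, a membrane protein of the MARVEL family, had 6720.4, 6295 and 7459 in siKIF15 libraries, against 10424, 10738 and 10782 in NC libraries (0.641). TMEM245 stood at 0.613 and DIP2B at 0.647. CMTM4 met the limits after correction, at 0.640, and LRRC58, TMEM245 and DIP2B did not. NPIPB4, NPIPB5, NPIPB12 and RANBP2 have near-identical copies in the genome and are uncertain; NPIPB4 had 103, 101 and 106 in siKIF15 libraries, against 232, 175 and 219.9 in NC libraries (0.495).

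Long, AT-rich transcripts were common among the members, a feature the limits did not use. The representative transcript (GENCODE 29, longest coding sequence) had a median of 7083 bases in the 162 matched members, against 3056 bases in 11043 other abundant genes. Coding sequences had medians of 2265 bases in members and 1428 in others, 3′ untranslated regions 2398 and 961, and gene spans 83227 and 32184. Each of these was thus longer in the median member. Median GC content was 42.1% in members and 49.7% in others. Transcripts of at least 6000 bases with under 45% GC made up 48.1% of members, against 7.94% of the others. Read the other way, 78 of all 955 abundant genes of that kind (8.17%) were members, so most of them lay outside the limits. At 50% GC or more, members were 0.549% of 5460 genes.

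**Figure D2:**
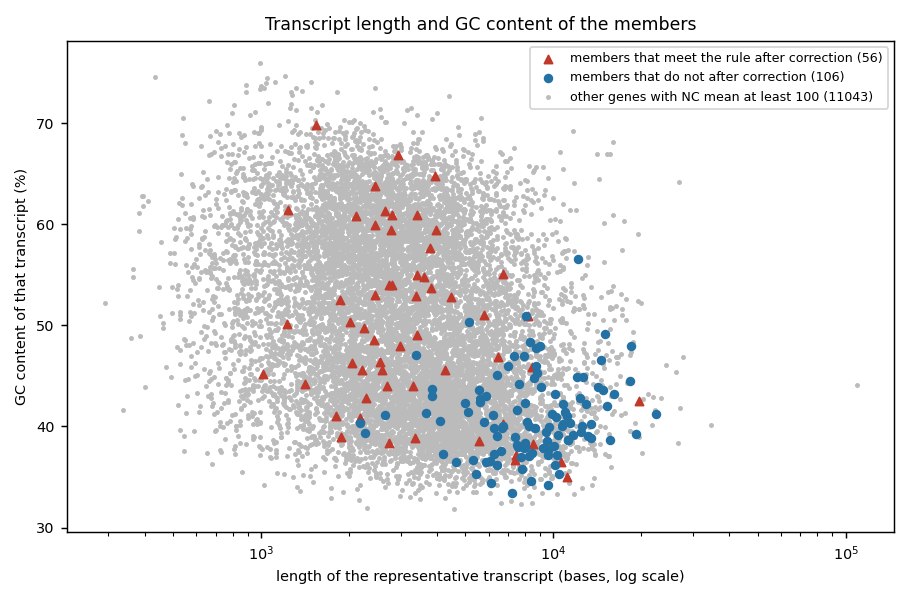
GC content of the representative transcript against its length on a log axis, for members that met the limits after correction (red triangles, 56), members that did not (blue circles, 106) and other abundant genes (grey, 11043). The blue points crowd the lower right, at long and AT-rich transcripts, whereas the red triangles spread over shorter and more GC-rich ones.

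Abundant genes as a whole moved with the same features, in a way that differed between the siKIF15 libraries. For the 955 long, AT-rich genes the median value over the NC mean was 0.790 in siKIF15 1, 0.720 in siKIF15 2 and 0.950 in siKIF15 3. For the 5460 genes at 50% GC or more the medians were 1.07, 1.09 and 0.979 in the same order. Across 11205 abundant genes, which share these libraries and are not replicates, the Spearman correlation of GC content with the value over the NC mean was 0.503 in siKIF15 1, 0.470 in siKIF15 2 and -0.107 in siKIF15 3. Within the members, those at 50% GC or more differed from the rest. The 56 members under 40% GC had medians of 0.581 in siKIF15 1, 0.501 in siKIF15 2 and 0.728 in siKIF15 3, and siKIF15 3 was highest in 55 of them. The 76 members at 40% to under 50% GC had much the same medians, 0.602, 0.503 and 0.728, with siKIF15 3 highest in 70. Transcript length was not separated from GC content in these classes. The 30 members at 50% GC or more had medians of 0.608, 0.570 and 0.583, so the 3 libraries stood nearly level there.

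**Figure D3:**
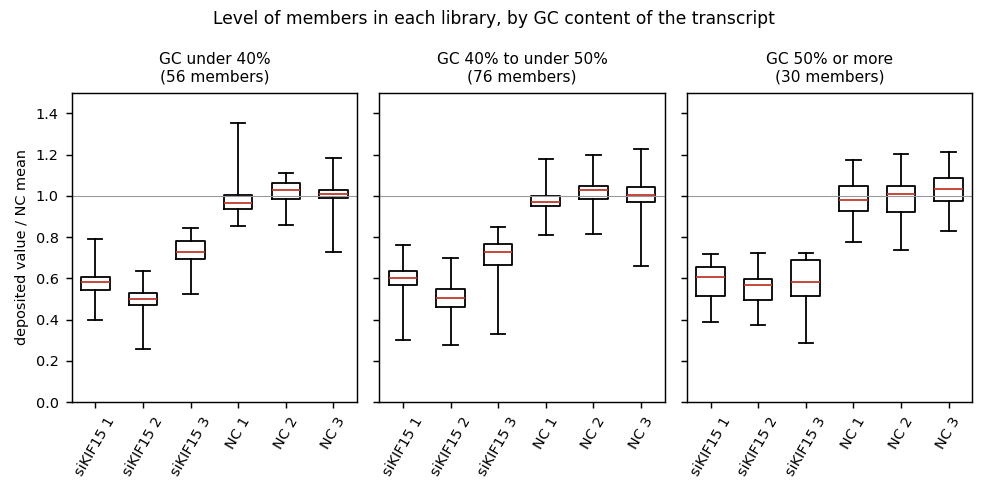
Deposited value over the NC mean for members in each library, in 3 classes of transcript GC content; the red line is the median, the box the quartiles and the whiskers the lowest and highest member. Medians of siKIF15 2 and siKIF15 3 are 0.501 and 0.728 under 40% GC and 0.570 and 0.583 at 50% GC or more.

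Removing each library's smooth trend with GC content and length, fitted over all genes with a mean of at least 10, gave the 162 matched members ratios of 0.321 to 0.851, with a median of 0.688, against a median of 0.613 as deposited over all 167. The 56 that still met the limits had a median GC content of 49.4%, a median length of 2876.5 bases and a median ratio of 0.577 before and 0.586 after correction. The 106 that did not had 40.3% GC, 8420 bases, and ratios of 0.626 before and 0.728 after. Another 34 genes met the limits after correction alone, and with the set-aside symbols counted 97 of 11202 genes (0.866%) did so. After correction the median member stood at 0.691 of the NC mean in siKIF15 1, 0.642 in siKIF15 2 and 0.730 in siKIF15 3, so the libraries came closer, and siKIF15 2 was lowest in 102.

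**Figure D4:**
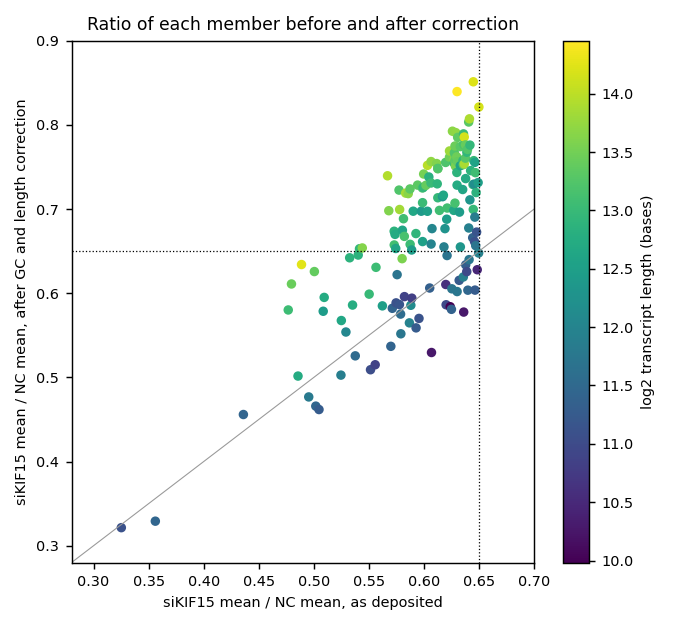
Ratio of siKIF15 mean to NC mean for each matched member as deposited (horizontal axis) and after correction for GC content and length (vertical axis), coloured by log2 transcript length. Dotted lines mark 0.65 and the diagonal marks no change; short transcripts stay near or under the diagonal and long ones rise above it, to at most 0.851.

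Other motifs searched in the same promoters, on either strand, differed less in share or were rarer among the members. The CCAAT box (CCAAT) was found in 30.6% of the 134 member promoters, 37.0% of those of other abundant genes and 35.7% of all promoters in the table. The GC box (GGGCGG) was found in 64.9% of member promoters, 71.9% of other abundant genes and 44.6% of all. The ETS factor site (CCGGAAG) was found in 12.7% of member promoters, 20.5% of other abundant genes and 10.7% of all. These elements of broadly active promoters were thus somewhat rarer among members than among other abundant genes. The AP-1 site (TGACTCA), which FOSB can bind, was found in 5.97% of member promoters, 2.68% of other abundant genes and 4.92% of all. It stood in the promoters of 8 members, SLC38A1 and KLHL24 among them. The E-box (CACGTG), which CLOCK binds, was found in 14.9% of member promoters, 10.5% of other abundant genes and 7.43% of all. It stood in those of 20 members, among them SIRT1, CREBRF and FNIP1. The cAMP response element (TGACGTCA) was found in 1.49% of member promoters, 3.42% of other abundant genes and 1.98% of all. The site of the respiratory factor NRF1 (GCGCATGCG) was found in 2.99%, 3.83% and 2.10% in the same order, and the core of an interferon response element (GAAANNGAA) in 4.48%, 5.99% and 8.29%. A unit of androgen receptor sites (AGAACA) was found in 7.46% of member promoters, 8.49% of other abundant genes and 14.9% of all. None of these shares was tested, and a promoter can hold several of the motifs.

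The pathway lists that held members had genes called in both directions. Over 16548 genes tested with limma on log2(value + 1), 1379 (8.33%) were lower and 1599 (9.66%) higher in siKIF15 at an adjusted p under 0.05, and the median log2 change was -0.0035. The counts were 417 lower and 767 higher without siKIF15 1, and 2540 lower and 2537 higher without siKIF15 3. Without NC 1, NC 2 or NC 3 there were 724, 467 and 679 lower genes, and without NC 2 or NC 3 there were 899 and 1044 higher. The members count among the lower genes of their lists by the way they were chosen. Of 25 measured NRF2 targets, genes of antioxidant defence, 7 were lower and 2 higher, with a median log2 change of -0.08. Beside the members GCLC and FTH1 and the set-aside SLC7A11 and ABCC4, the lower ones were ABCC1, GCLM and TXNRD1. GCLM, the modifier subunit of the GCLC enzyme, had 2247, 2199 and 2491 in siKIF15 libraries, against 2795, 2629.8 and 2859.7 in NC libraries (log2 change -0.26 ± 0.08 SE, limma adjusted p = 0.032, n = 3 each, with the groups not overlapping). Its call was lost after correction for GC content and length (limma adjusted p = 0.44). It was also lost without siKIF15 1, siKIF15 2, NC 1, NC 2 or NC 3 (limma adjusted p = 0.14, 0.078, 0.13, 0.070 and 0.16 in that order). In all, the call of GCLM was lost in 8 of 17 alternatives (highest limma adjusted p = 0.46). TXNRD1, thioredoxin reductase, had a log2 change of -0.30 ± 0.07 SE (limma adjusted p = 0.0079, and 0.00059 after correction). The call of TXNRD1 ended in 3 of 17 alternatives (highest limma adjusted p = 0.093). Among these were leaving out siKIF15 1 (limma adjusted p = 0.076) and leaving out NC 2 (limma adjusted p = 0.073). HMOX1, heme oxygenase and another NRF2 target, was higher, with 4273, 4485 and 3808 in siKIF15 libraries, against 3498, 2885 and 3569 in NC libraries (log2 change 0.34 ± 0.09 SE, limma adjusted p = 0.016). The call of HMOX1 ended in 4 of 17 alternatives (highest limma adjusted p = 0.16). Among these were leaving out siKIF15 1, siKIF15 2 or NC 2 (limma adjusted p = 0.13, 0.050 and 0.13). The count of lower NRF2 targets was 3 without siKIF15 1 or without NC 2, and 11 after correction. The count over all genes moved the same way, to 2189 lower of 16117 tested after correction. The other higher target was ABCC3, and 1 target was called higher without siKIF15 2 and none without siKIF15 1 or without NC 2.

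Of 27 measured genes of PI3K, FOXO and insulin signalling, 10 were lower and 4 higher, with a median log2 change of -0.15. Beside GAB1, RICTOR and SESN3 the lower genes included CCNG2, FOXO3, IRS1, PIK3CA, PIK3CB and the set-aside IRS2. PIK3CB, a catalytic subunit of PI3K, had 2758, 2743 and 3240.3 in siKIF15 libraries, against 3976, 4019.8 and 4001 in NC libraries (log2 change -0.46 ± 0.08 SE, limma adjusted p = 0.00075). Its groups did not overlap, and the call held in each of the 17 alternatives run. The transcription factor FOXO3 had a log2 change of -0.41 ± 0.08 SE (limma adjusted p = 0.0026), and its call was lost without the variance trend (limma adjusted p = 0.081). AKT1, the kinase downstream of PI3K, was higher, with 17847, 18558 and 16437 in siKIF15 libraries, against 12587, 12419.9 and 12758 in NC libraries (log2 change 0.48 ± 0.07 SE, limma adjusted p = 0.00014). TXNIP, which limits glucose uptake, was higher too, with 11217, 11039 and 11775 in siKIF15 libraries, against 5404, 4926 and 5507 in NC libraries (log2 change 1.10 ± 0.07 SE, limma adjusted p = 1.4e-08). The other higher genes were CITED2 and GRB10, and the count of lower genes was 5 without siKIF15 1 or without NC 2.

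A further 4 lists held 1 member each, and 10 of the 16 lists held none. Androgen response genes, with MAF, had 11 lower and 7 higher of 39 measured, and the lower count was 3 without siKIF15 1, 2 without NC 2 and 5 without NC 3, with 4 higher in each of these. Histone modifiers, with JMJD1C, had 8 lower and 4 higher of 39, p53 targets, with ZMAT3, had 3 lower and 8 higher of 26, and Notch signalling, with MIB1, had 2 lower and 1 higher of 20. The lower histone modifiers numbered 4 without siKIF15 1 or NC 2, 5 without NC 3 and 16 without siKIF15 3. The higher ones numbered 8 without siKIF15 3 and 2 without any of siKIF15 1, NC 1, NC 2 or NC 3. The lower Notch genes numbered 1 without siKIF15 1 or NC 2 and 4 without siKIF15 3, and the higher ones 3 without siKIF15 2 or siKIF15 3. ZMAT3 was thus lower in a list where most called genes were higher; its other lower genes were SESN2 and TP53INP1, both set aside by name. The 10 lists without a member had 0 to 6 lower genes each. Among them the interferon response list had 31 of 32 genes higher and none lower, with a median log2 change of 2.92, and the other 9 had 0 to 7 higher genes each.

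Genes just outside the limits were much like those just inside. PRRC2C, at a ratio of 0.651, and COLGALT2, at 0.652, lay just outside, as did TP53INP1 at 0.651, and TNRC6B, UNC5A and ZNF507 just inside at 0.6499, 0.6496 and 0.649. On the level limit, ARMH4, DDR2 and NKX1-2 missed a mean of 100 with NC means of 98.7, 98.3 and 98.2 and ratios of 0.506, 0.621 and 0.568, and TNIK, NPIPB12 and C4orf50 passed with 102.9, 103.9 and 105.0. A further 11 genes passed both limits with overlapping groups. Of the symbols set aside, HSPA6, PGR, TUBB3, BHLHE41, IRS2, EGR1, ALDH1A3 and ABCC4 met the limits, with ratios of 0.263 for HSPA6 to 0.638 for ABCC4, and SESN2 (0.804), SLC7A11 (0.728) and TP53INP1 did not.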

How the data were processed

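RNA-seq of 6 libraries was used, 3 from C4-2B-ENZR cells labelled KIF15 knockdown and 3 from negative control cells, with groups and replicate numbers from the sample titles. Per the labels' protocols, standard Illumina library preparation was applied to total RNA. Bowtie 0.12.2 and 2 mouse builds, mm8 and mm9, are named in the submitters' processing notes although the organism is human; strand, annotation, the human build and the counting of shared reads are not given in the sources used here. Each deposited file gives every gene symbol a signal, which the authors appear to have scaled between libraries; its unit is not stated, so depth is unknown and no counting interval can be given. Very low values lie at a floor, and a mean of at least 100 keeps the members away from it.

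Of 17354 distinct symbols, 16822 matched GENCODE 29 (GRCh38) directly and 49 through synonyms. GC content and length came from the representative transcript, and the correction removed from each library a spline (4 degrees of freedom per term) of the deviation of log2 values from the 6-library mean. limma 3.58.1 with a variance trend was run in R 4.3.3 on log2(value + 1), without a block. Genes averaging 1 or more in a group were tested, with Benjamini-Hochberg adjustment and a threshold of 0.05. A test for counts was planned only if raw counts had been deposited. The limma fit was checked on simulated data, with independent noise of the NC spread in all 6 libraries. That check cannot speak to the wider siKIF15 spread or to trends that genes share. Fold changes on the log2(value + 1) scale understate the change of low genes. Whether the libraries of a group are separate cultures is not labelled, and a p-value here reflects the spread among these libraries alone, part of which may be technical.

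The limits, the members, their roles and the 16 gene lists were chosen with earlier results of these data known, so no member carries a p-value. The named genes are KIF15, the 20 members with the lowest ratio, the 15 with the highest NC mean, members in a list, the 3 genes on each side of each limit, the 11 set-aside symbols and list genes in small counts. Other genes were named for their role after their values were seen, and some genes under this rule, 1 of the 20 among them, are not reported here. Alternatives were other scalings, limits, pseudocounts and filters, a replicate block, the correction, and leaving out each library in turn.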

Additional observations from a re-analysis of the deposited data

How the results depend on the processing

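The number of genes that met the limits, 167, was 90 once GC content and transcript length were corrected for (56 of them members), 69 at a ratio of at most 0.6, 347 at 0.7, and 98 to 385 when a library was left out; other scalings, level limits and allowed overlap gave 135 to 250. The members' median log2 change was -0.72 and ranged over -0.85 to -0.54 in the alternatives; its sign is fixed by how the members were chosen. Without the variance trend, limma called 310 genes lower and 760 higher, and 9 lower and 55 higher of the 78 and 88 called in the gene lists. Leaving out a library gave 417 to 2540 lower and 767 to 2537 higher genes, and 24 to 126 lower list genes. The correction gave 2189 lower genes, and 2245 with the replicate block. Same-numbered libraries had correlations of 0.03, -0.06 and 0.02 of their deviations from the group mean. With 3 libraries a group, these values cannot settle whether libraries were paired. The replicate block alone called 1530 lower and 1654 higher. Equal totals gave 1753 lower and 1205 higher, with a median log2 change over all genes of -0.06. The cause of these shifts was not tested. The unknown depth and unit limit every value, and 3 libraries a group allow no exact permutation p under 0.10 for a single gene.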
